A study of Mus musculus with 8 samples.

Results

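The NRF2 and antioxidant genes described here are the transcription factor gene Nfe2l2, its inhibitor Keap1, 5 genes widely used as NRF2 targets (Hmox1, Gclc, Gclm, Txnrd1 and Srxn1), and 3 enzymes that remove superoxide or hydrogen peroxide (Sod1, Sod2 and Cat). They were found by gene symbol in the deposited table of normalized read counts, which held all 10 members among its 18877 symbols. RNA came from activated muscle stem cells (ASCs), the stem cells of skeletal muscle after they leave quiescence, in 4 wild-type and 4 mfn2-/- libraries. Mfn2 encodes mitofusin 2, an outer membrane protein that fuses mitochondria. All mice carried the Pax7-Cre(ERT2) driver and a mito-Dendra2 allele, a fluorescent protein that Cre switches on in mitochondria, and all received tamoxifen at 75 mg/kg once daily for 5 days. In mfn2-/- mice the same driver deleted a conditional Mfn2 allele, so deletion was aimed at Pax7-expressing cells and their progeny, not at the whole animal. The tibialis anterior muscle of both groups was injured with 50 uL of 1.2% barium chloride. Living CD34-, Dendra2+ and DAPI- cells were sorted from it 2 days later. The labels used here give neither age nor sex, and do not say whether the libraries of a group came from separate animals, so p-values measure only the spread between these libraries.

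Read totals, recovered from the normalized values, ranged from 1880464 to 7508215 in wild-type and from 2269009 to 6199866 in mfn2-/- libraries. Reads fell in the fewest genes, 9646, in mfn2-/- replicate 4, against 12613 to 15270 genes in the other 7 libraries. Reads of Y-linked genes (807 to 2336 per library) were present in wild-type replicates 3 and 4 and in mfn2-/- replicates 1 and 2, while the other 4 libraries held 0. Each group thus had 2 libraries of each kind. Within a group the kind cannot be told apart from the pair of replicate numbers. The targeted gene Mfn2 measured 243, 245, 202 and 228 normalized reads in wild-type replicates 1 to 4 and 104, 118, 172 and 110.0 in mfn2-/- replicates 1 to 4. Every mfn2-/- library was below every wild-type library, but the log2 change of -0.88 (SE 0.30) did not pass the test (limma, adjusted p = 0.0848).

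The labelled cell type was checked against marker lists. Muscle stem cell markers were present in all libraries, with normalized reads summing to between 10513 and 16052 in the wild-type group and between 29887 and 43119 in the mfn2-/- group. Of 11 markers, 4 were called higher (Myod1, Sdc4, Des and Vcam1) and 7 were not called. Estimates were positive for 8 and negative for 3, with a median log2 change of 0.26. The most abundant, Sdc4 and Des, had means of 4271 and 2156 in wild-type and 17473 and 7969 in mfn2-/- libraries. Markers of fibroadipogenic cells, the matrix-forming mesenchymal cells of muscle, summed to 202420 to 259288 in wild-type and 6003 to 10187 in mfn2-/- libraries, and 12 of 14 were called lower, with Col1a1 and Col1a2 the most abundant. Cd34, the gene of the protein that the sort selected against, was among the 12 called lower. Tenocyte markers, with Fmod and Thbs4 the most abundant, summed to 38669 to 60889 and to 306 to 415, and 9 of 9 were called lower. All markers of both lists had reads in both groups. Macrophage markers (Cd68 and Itgam the most abundant) summed to 59.8 to 159 and to 130.0 to 205, with 0 of 6 called by limma and 1 at an unadjusted p under 0.05, and Emr1 and Cd163 had no read in wild-type and C1qb none in mfn2-/- libraries. Neutrophil markers (Cxcr2 and Csf3r the most abundant) summed to at most 46.4, with no gene above the filter, and S100a9, Mpo, Ngp and Camp had no read in wild-type and Ly6g none in mfn2-/- libraries. Mural cell markers, led in abundance by Des and Notch3, gave 2 higher and 2 lower calls of 8, and myofiber markers, led by Acta1 and Atp2a1, gave 2 higher of 10. Endothelial markers (10 tested, led by Tek and Flt1) and erythroid markers (2 tested, Alas2 and Hba-a1) gave 0, with 0 and 1 at an unadjusted limma p under 0.05. For macrophage, endothelial and erythroid markers edgeR and DESeq2 also called 0. Of the erythroid markers, Hba-a2 had no read in wild-type and Slc4a1 none in mfn2-/- libraries. The marker lists were written with results of these data known. Fibroadipogenic and tenocyte transcripts thus differed with genotype beside every result below, and their part in those results was not tested. In bulk libraries, fewer cells of a type and less RNA per cell cannot be told apart.

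NRF2, the protein of Nfe2l2, is a transcription factor that is made continuously and destroyed continuously. KEAP1 holds it to a CUL3 ubiquitin ligase, and when oxidants or electrophiles modify KEAP1, NRF2 builds up, pairs with a small MAF protein and binds antioxidant response elements next to genes for glutathione synthesis, thioredoxin reduction, heme breakdown and detoxification. Because this control acts on the protein, the transcript level of Nfe2l2 does not measure NRF2 activity, and NRF2 protein and binding were not measured here. In skeletal muscle the pathway is known for limiting oxidative damage after exercise and injury.

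Promoter windows show where the letters of such an element lie next to the members. The windows were those of RefSeq (GRCm38.p6), 250 bases before to 50 bases after a start, and 8 of the 10 members matched, with 10 windows. Hmox1 and Gclc have no entry in that table. The core of the antioxidant response element was searched as TGACNNNGC and the AP-1 motif as TGANTCA, on both strands. Both patterns open with TGA and can overlap, although no matches in the members' windows did. TGACNNNGC was found in 5 of the 10 windows, 1 for each of 5 members (Nfe2l2, Txnrd1, Srxn1, Gclm and Sod1), and in 12.4% of all 32851 windows. TGANTCA was found in the window of 1 member, Srxn1, and in 7.81% of all windows. Keap1, Sod2 and Cat had neither pattern in this window. The stretches below are shown because they carry these matches next to the genes whose values follow. Capitals mark TGACNNNGC, or its reverse complement where the match is on the opposite strand, and in Srxn1 they mark the pair of TGANTCA matches. The stretches are chr2:75704865-75704913 on the minus strand for Nfe2l2, chr10:82859084-82859152 on the plus strand for Txnrd1, chr2:152105392-152105517 on the plus strand for Srxn1, chr3:122245393-122245461 on the plus strand for Gclm, and chr16:90220676-90220744 on the plus strand for Sod1.
Nfe2l2: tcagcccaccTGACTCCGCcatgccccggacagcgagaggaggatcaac
Txnrd1: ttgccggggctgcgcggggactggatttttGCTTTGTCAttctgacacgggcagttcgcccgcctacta
Srxn1: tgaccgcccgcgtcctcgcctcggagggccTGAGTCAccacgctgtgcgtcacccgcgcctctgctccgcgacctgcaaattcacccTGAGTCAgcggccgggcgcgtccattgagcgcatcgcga
Gclm: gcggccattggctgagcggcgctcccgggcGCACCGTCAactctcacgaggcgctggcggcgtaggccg
Sod1: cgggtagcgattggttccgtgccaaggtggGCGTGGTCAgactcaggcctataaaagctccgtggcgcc
The match lay 240 bases before the start in Nfe2l2, 92 in Txnrd1, 134 in Gclm and 56 in Sod1. The Txnrd1 window, chr10:82858956-82859255, belongs to a start inside the gene, which is annotated from 82833951. In Srxn1 the TGANTCA matches lay 102 and 45 bases before the start, and its TGACNNNGC match, outside the stretch shown, lay 28 bases after it. The TGANTCA match at 45 bases is followed by gc, so its letters differ from TGACNNNGC only at the fourth base. These are matches of letters and not measured binding sites.

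The comparison asked which of these genes differed between wild-type and mfn2-/- libraries labelled as ASCs, 2 days after injury. These libraries also differed in fibroadipogenic and tenocyte markers, as given above, so a difference between them cannot be assigned to a cell type. Values are normalized read counts, given as mean ± SD of 4 libraries. Changes are differences of log2(value + 1), mfn2-/- minus wild-type, a scale that understates the change of weakly expressed genes. Nfe2l2, Txnrd1 and Sod2 were higher in mfn2-/- libraries, between 2.51-fold and 3.44-fold in mean level, and no member was called lower. Thus 3 of 10 members were called, against 10.4% of the 11754 genes tested (3.99% higher and 6.36% lower). The groups did not overlap for 4 members, Hmox1 being the fourth, all with higher mfn2-/- values, against 19.5% of all genes (7.36% higher). The estimated change was positive for 8 members and negative for 2. The median change was 0.86 over the members and -0.16 over all genes tested. Of all calls 38.5% were higher. Upper-quartile scaling, which moved the median of all genes to 0.05, gave 57.5% higher, and quantile normalization moved that median to 0.08. The 3 called members were called higher under both. All 10 members passed the filter on low values (mean of 10 or more).

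**Figure D1:**
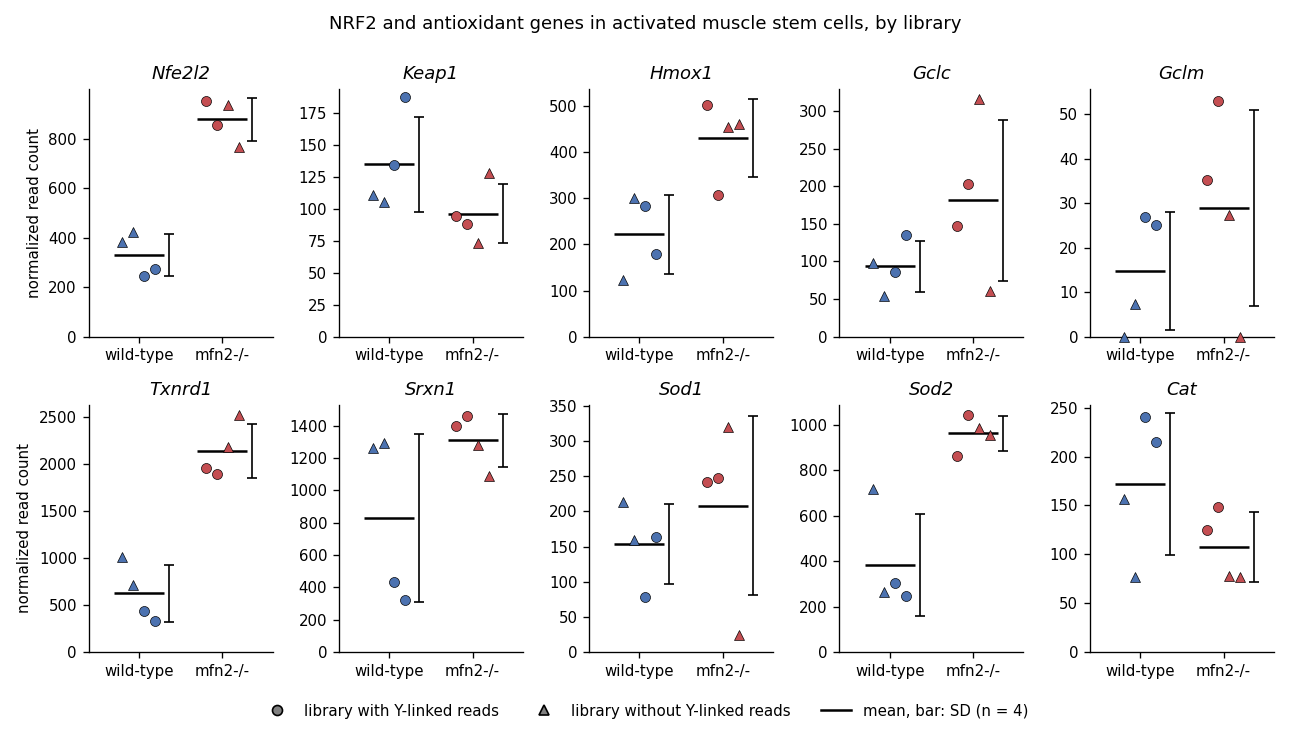
Normalized read count (vertical axis, linear from 0) of each of the 10 members in each library. Blue points are wild-type and red points mfn2-/- libraries, circles have Y-linked reads and triangles have none, the line is the mean and the bar the SD (n = 4). Nfe2l2, Txnrd1, Sod2 and Hmox1 have no overlap between groups, and the other 6 members overlap.

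Nfe2l2 measured 382, 424, 244 and 273 in wild-type replicates 1 to 4 and 953, 853, 936 and 768 in mfn2-/- replicates 1 to 4. All mfn2-/- libraries stood well above the highest wild-type library, and the mfn2-/- libraries lay close together. The mean rose from 331 ± 86.0 to 878 ± 85.2, a log2 change of 1.44 (SE 0.23, 95% interval 0.95 to 1.92, limma adjusted p = 0.00132). The gene was called under all 21 alternative settings. In the annotation used here (GENCODE M21, GRCm38) Nfe2l2 lies at chr2:75675513-75704641 on the minus strand, with no overlapping exon of another gene and no near-identical copy.

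Keap1, the adaptor that brings NRF2 to the ubiquitin ligase, measured 111, 106, 135 and 188 in wild-type and 94.7, 88.5, 73.7 and 128 in mfn2-/- replicates 1 to 4. The groups overlapped: mfn2-/- replicate 4 lay above wild-type replicates 1 and 2. Its change of -0.47 (SE 0.39, 95% interval -1.31 to 0.36) did not pass (limma adjusted p = 0.489). Keap1 shares 510 exon bases with the antisense gene Gm16754, whose reads cannot be told apart here because the strand setting of the counting is not given in the sources used.

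Txnrd1, the cytosolic thioredoxin reductase that returns thioredoxin to its reduced form, had the largest estimated change of the 10 members. It measured 1009.8, 713, 437 and 329.6 in wild-type and 1954, 1892, 2183 and 2523 in mfn2-/- replicates 1 to 4. The lowest mfn2-/- library was above the highest wild-type library, and in wild-type the replicates with Y-linked reads were the lowest. The mean rose from 622 ± 305 to 2138 ± 286, a log2 change of 1.90 (SE 0.30, 95% interval 1.26 to 2.54, limma adjusted p = 0.00124), and it was called under all 21 alternatives.

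Srxn1, sulfiredoxin, reactivates over-oxidised peroxiredoxins. It measured 1264, 1293, 435 and 322 in wild-type replicates 1 to 4 and 1402, 1462, 1282 and 1092 in mfn2-/- replicates 1 to 4. Wild-type replicates 1 and 2, without Y-linked reads, were at the level of the mfn2-/- libraries, whereas wild-type replicates 3 and 4 were far below them. The overall change of 0.91 (SE 0.39, 95% interval 0.07 to 1.75) did not pass (limma adjusted p = 0.167). It was called under 1 of 21 alternatives, weights per library, with a change of 1.63.

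Hmox1, heme oxygenase 1, breaks heme down to biliverdin, iron and carbon monoxide. It measured 123, 301, 283 and 179 in wild-type and 501, 307, 455 and 460.0 in mfn2-/- replicates 1 to 4. The groups did not overlap, but only just: mfn2-/- replicate 2 exceeded wild-type replicate 2 by a few normalized reads. The means were 221 ± 84.8 and 431 ± 84.8, and the log2 change of 1.02 (SE 0.32, 95% interval 0.34 to 1.70) missed the threshold (limma adjusted p = 0.0571). It passed under 6 of 21 alternatives, among them DESeq2 on the recovered reads (adjusted p = 0.0446) and the fit without wild-type replicate 2 (limma adjusted p = 0.0438).

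Gclc and Gclm encode the catalytic and the modifier subunit of glutamate-cysteine ligase, the first enzyme of glutathione synthesis. Gclc measured 97.8, 53.9, 86.6 and 136 in wild-type and 147, 202, 315 and 60.5 in mfn2-/- replicates 1 to 4. The first 3 mfn2-/- libraries were above every wild-type library, and mfn2-/- replicate 4 was below all wild-type libraries but replicate 2. The change was 0.79 (SE 0.51, 95% interval -0.31 to 1.90, limma adjusted p = 0.374), and with 1 library left out it ranged from 0.45 without mfn2-/- replicate 3 (adjusted p = 0.658) to 1.24 without mfn2-/- replicate 4 (adjusted p = 0.066). Gclm was the weakest member, with 0, 7.26, 26.9 and 25.1 in wild-type and 35.3, 52.9, 27.3 and 0 in mfn2-/- replicates 1 to 4, from 0 to 67 reads per library. Its 2 libraries at 0 were the 2 shallowest, wild-type replicate 1 and mfn2-/- replicate 4, where 3 reads correspond to 6.82 and 5.50 normalized reads. The estimate of 0.80 had a 95% interval of -2.49 to 4.09 (limma adjusted p = 0.789). It was -0.25 without wild-type replicate 1 and 2.11 without mfn2-/- replicate 4, so no change of Gclm was detectable in these libraries. Of these 2 libraries mfn2-/- replicate 4 had more reads (2269009 against 1880464) but reads in fewer genes (9646 against 12613). The reason for the values of 0 was not tested. Gclm also overlaps exons of Gm17494 and Gm6061 (540 bases together), and its reads are uncertain to that extent.

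**Figure D2:**
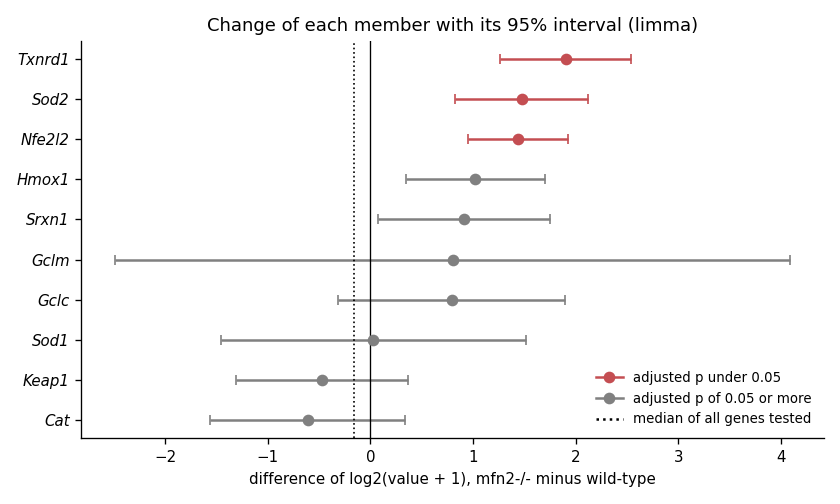
Difference of log2(value + 1), mfn2-/- minus wild-type (horizontal axis), for each member with its 95% interval from limma (4 libraries per group). Red members passed an adjusted p of 0.05, grey members did not, and the dotted line is the median of all genes tested (-0.16). Txnrd1, Sod2 and Nfe2l2 stand at the top, and the Gclm interval runs from -2.49 to 4.09.

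The superoxide dismutases turn superoxide into hydrogen peroxide, SOD2 in the mitochondrial matrix and SOD1 mostly in the cytosol. Sod2 measured 716, 265, 303 and 247 in wild-type and 863, 1045, 988 and 955 in mfn2-/- replicates 1 to 4. Wild-type replicate 1 lay far above the other wild-type libraries and still below every mfn2-/- library. The mean rose from 383 ± 224 to 963 ± 76.4, a log2 change of 1.47 (SE 0.30, 95% interval 0.82 to 2.12, limma adjusted p = 0.00744). It was called under 20 of 21 alternatives and lost in the limma fit with no intensity trend (adjusted p = 0.0713). Some Sod2 exon sequence, up to 193 bases, has near-identical copies in 19 other genes, and the authors' treatment of such reads is not given in the sources used here.

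Sod1 measured 214, 159.7, 77.6 and 164 in wild-type and 242, 248, 319.8 and 23.8 in mfn2-/- replicates 1 to 4. The first 3 mfn2-/- libraries were above every wild-type library, whereas mfn2-/- replicate 4, at 13 reads, was the lowest of all. The estimate was 0.03 (SE 0.69, 95% interval -1.46 to 1.51, limma adjusted p = 0.986), and with 1 library left out it ranged from -0.34 without mfn2-/- replicate 3 (adjusted p = 0.817) to 0.89 without mfn2-/- replicate 4 (adjusted p = 0.131). Sod1 shares a near-identical stretch of 298 bases with Gm8566. Cat, the peroxisomal catalase that splits hydrogen peroxide, measured 157, 76.7, 240.1 and 215 in wild-type and 125, 149, 78.1 and 77.0 in mfn2-/- replicates 1 to 4. The groups overlapped, and the 2 highest libraries were wild-type replicates 3 and 4. The change of -0.61 (SE 0.44, 95% interval -1.56 to 0.33) did not pass (limma adjusted p = 0.422).

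Levels of different genes were compared per length, here as normalized reads per kilobase of annotated exon. That length joins the exons of every annotated transcript of a gene, from 1751 bases for Hmox1 to 10008 for Sod2. It can exceed the length of the transcript expressed, which lowers the value, so the order of genes is approximate. In wild-type libraries Srxn1 was the highest member by mean, at 294 ± 185, followed by Hmox1 at 126 ± 48.4, and their SDs overlapped. Txnrd1 (87.8 ± 43.0), Nfe2l2 (87.2 ± 22.7) and Cat (65.9 ± 27.7) followed with overlapping SDs. Sod1 (38.7 ± 14.2), Sod2 (38.3 ± 22.3), Keap1 (28.8 ± 7.99) and Gclc (24.8 ± 8.96) formed a lower group whose SDs also overlapped, and Gclm was lowest at 2.36 ± 2.11. In mfn2-/- libraries the order by mean level per kilobase was Srxn1 (464 ± 57.8), Txnrd1 (302 ± 40.3), Hmox1 (246 ± 48.4) and Nfe2l2 (231 ± 22.5), and the SDs of Hmox1 overlapped those of both its neighbours. Sod2 (96.2 ± 7.63) came next and stood above Sod1 (52.5 ± 32.3), Gclc (48.2 ± 28.3), Cat (41.0 ± 13.6) and Keap1 (20.5 ± 4.92), with Gclm again last at 4.59 ± 3.50.

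Changes were also computed within the libraries with and within those without Y-linked reads, with 2 libraries per group. The log2 change of Nfe2l2 was 1.80 with and 1.07 without Y-linked reads, that of Txnrd1 2.34 and 1.47, and that of Sod2 1.79 and 1.15. All 3 called members were thus positive within each kind, and the difference between kinds did not pass for any of them (limma interaction, adjusted p = 0.399, 0.278 and 0.658). Hmox1 gave 0.80 and 1.25, Gclc 0.67 and 0.92, Gclm 0.71 and 0.89, Keap1 -0.79 and -0.16, and Cat -0.73 and -0.50. Sod1 gave 1.11 and -1.06, and its interaction of 2.17 did not pass with all 8 libraries (limma adjusted p = 0.551). Single libraries decided that value: it was 4.02 and passed without mfn2-/- replicate 3 (adjusted p = 0.0152), and it was 0.32 without mfn2-/- replicate 4 (adjusted p = 0.86).

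Srxn1 was the 1 member of 10 whose interaction passed with all 8 libraries, against 1.47% of all genes tested. In this layout the interaction is also the shift of replicates 1 and 2 against replicates 3 and 4, summed over both groups. A genotype change that differs between kinds thus cannot be told apart from a shift by replicate number that both groups share. That background of 173 genes was itself unstable. It was 76 and 114 genes without wild-type replicate 1 or 2, 57 without wild-type replicate 3 or 4, 31 and 38 without mfn2-/- replicate 1 or 2, and 1347 without mfn2-/- replicate 3. No member was called without mfn2-/- replicate 1 or 2, and 2 were (Srxn1 and Sod1) without mfn2-/- replicate 3. The log2 change of Srxn1 was 1.93 with and -0.11 without Y-linked reads. The difference of 2.04 (SE 0.28) passed the test (limma interaction, adjusted p = 0.0059). It missed the threshold without mfn2-/- replicate 1 (adjusted p = 0.0749) or mfn2-/- replicate 2 (adjusted p = 0.0744). The small MAF genes Maff and Mafk, whose proteins pair with NRF2 or BACH1 on DNA, differed between kinds in the same direction. Maff measured 2188, 2102, 913 and 849 in wild-type replicates 1 to 4 and 3029.7, 2904, 1799 and 1999 in mfn2-/- replicates 1 to 4, with changes of 1.75 and -0.18 (limma interaction 1.93, adjusted p = 0.00163). Mafk gave 1.85 and 0.36 (limma interaction 1.49, adjusted p = 0.00708), which missed without wild-type replicate 4 (adjusted p = 0.0549) or mfn2-/- replicate 1 (adjusted p = 0.0893). For Srxn1, Maff and Mafk the wild-type libraries with Y-linked reads, replicates 3 and 4, were the low ones. In the mfn2-/- group the libraries without Y-linked reads, also replicates 3 and 4, were the lower ones for each gene. Mafk measured 4394 and 4946 there, against 7003 and 5919 in mfn2-/- replicates 1 and 2. Several marker sums moved with the same split of the wild-type libraries. In replicates 3 and 4, against replicates 1 and 2, myofiber markers summed to 2851 and 2305 against 1007 and 1159, and tenocyte markers to 60889 and 58084 against 38669 and 39717. Endothelial markers summed to 1976 and 1867 against 1246 and 1362. Fibroadipogenic markers summed to 259288 and 248271 against 213530 and 202420, and muscle stem cell markers, lower in replicates 3 and 4, to 10980 and 10513 against 16052 and 15689. In mfn2-/- replicates 3 and 4, against 1 and 2, fibroadipogenic markers summed to 6104 and 6003 against 10187 and 10003. Tenocyte markers summed to 317 and 306 against 415 and 329, and endothelial markers to 1542 and 1818 against 2435 and 2207. Myofiber markers summed to 2915 and 3922 against 2694 and 2783, and muscle stem cell markers to 35056 and 43119 against 29887 and 29933. The myofiber marker Atp2a1 had an interaction of its own, in the opposite direction (limma interaction -3.19, adjusted p = 0.00452). The part of these in the result was not tested.

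**Figure D3:**
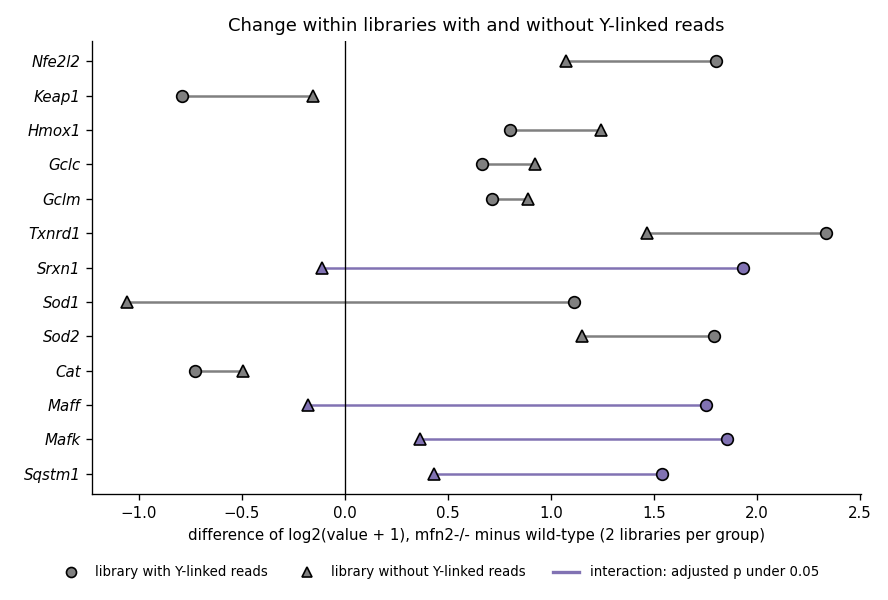
Difference of log2(value + 1), mfn2-/- minus wild-type (horizontal axis), within libraries with (circles) and without (triangles) Y-linked reads, for the 10 members and for Maff, Mafk and Sqstm1. Each point compares 2 libraries per group, and purple marks genes whose interaction passed an adjusted p of 0.05. Nfe2l2, Txnrd1 and Sod2 lie right of 0 in both kinds, whereas Srxn1 runs from -0.11 to 1.93.

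The other genes of the pathway were read from 7 lists, written with results of these data known. Of 121 listed genes that the table holds, 102 were tested and 11 were called, 9 higher and 2 lower, a share of 10.8% beside the 10.4% of all genes. Their median change was -0.01. Without wild-type replicate 3 or 4, or without mfn2-/- replicate 1, 2 or 3, the number called was 6 or 7.

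Partners and regulators of NRF2 gave 5 calls, all higher, of 16 genes tested, with a median change of 0.63. Of all genes tested 10.4% were called and 3.99% were called higher. This list, like the others, was written with results of these data known. Bach1, a repressor that competes with NRF2 for the same DNA elements, measured 905, 1138, 693 and 558 in wild-type and 2742, 2481, 1416 and 1994 in mfn2-/- replicates 1 to 4. Every mfn2-/- library was above every wild-type library, and the difference came to 1.40 on the log2 scale (SE 0.26, limma adjusted p = 0.00417). Cul3, the scaffold of the ubiquitin ligase that KEAP1 serves, measured 678, 659, 656 and 833 in wild-type and then 1211, 1476, 1381 and 1263 in mfn2-/- replicates 1 to 4. It too had no overlap, with wild-type replicate 4 the highest of its group, and a change of 0.92 (SE 0.18, limma adjusted p = 0.005).

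Mafk measured 3359, 3908, 1935 and 1637 in wild-type and 7003, 5919, 4394 and 4946 in mfn2-/- replicates 1 to 4, a change of 1.11 (SE 0.28, limma adjusted p = 0.0214). Sqstm1, which encodes the autophagy receptor p62 that can bind KEAP1, measured 5563, 6030.3, 3119.7 and 2812 in wild-type and then 9582, 7727, 8719 and 7018 in mfn2-/- replicates 1 to 4, a change of 0.99 (SE 0.26, limma adjusted p = 0.0287). For both genes the mfn2-/- libraries were all above the wild-type libraries, and wild-type replicates 3 and 4 were the lowest. Neither call survived the loss of wild-type replicate 3 (adjusted p = 0.0761 for Mafk and 0.101 for Sqstm1) or 4 (0.0682 and 0.0936), or the loss of mfn2-/- replicate 1 (0.0612 and 0.0723) or 2 (0.0556 and 0.0541). That of Sqstm1 was also lost without mfn2-/- replicate 3 (0.0694). Ep300, a histone acetyltransferase and coactivator, had a change of 0.69 (SE 0.19, limma adjusted p = 0.0348), with 864 to 1075 in wild-type and 1301 to 2069.6 in mfn2-/- libraries. Leaving out any 1 library other than mfn2-/- replicate 4 ended its call (adjusted p between 0.0549 and 0.107), as did the replicate number as a block (adjusted p = 0.0604). Of the most abundant partners not called, the related coactivator gene Crebbp had a change of 0.52 (limma adjusted p = 0.0985) and Maff of 0.79 (limma adjusted p = 0.144), which passed with the replicate block (adjusted p = 0.0299).

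**Figure D4:**
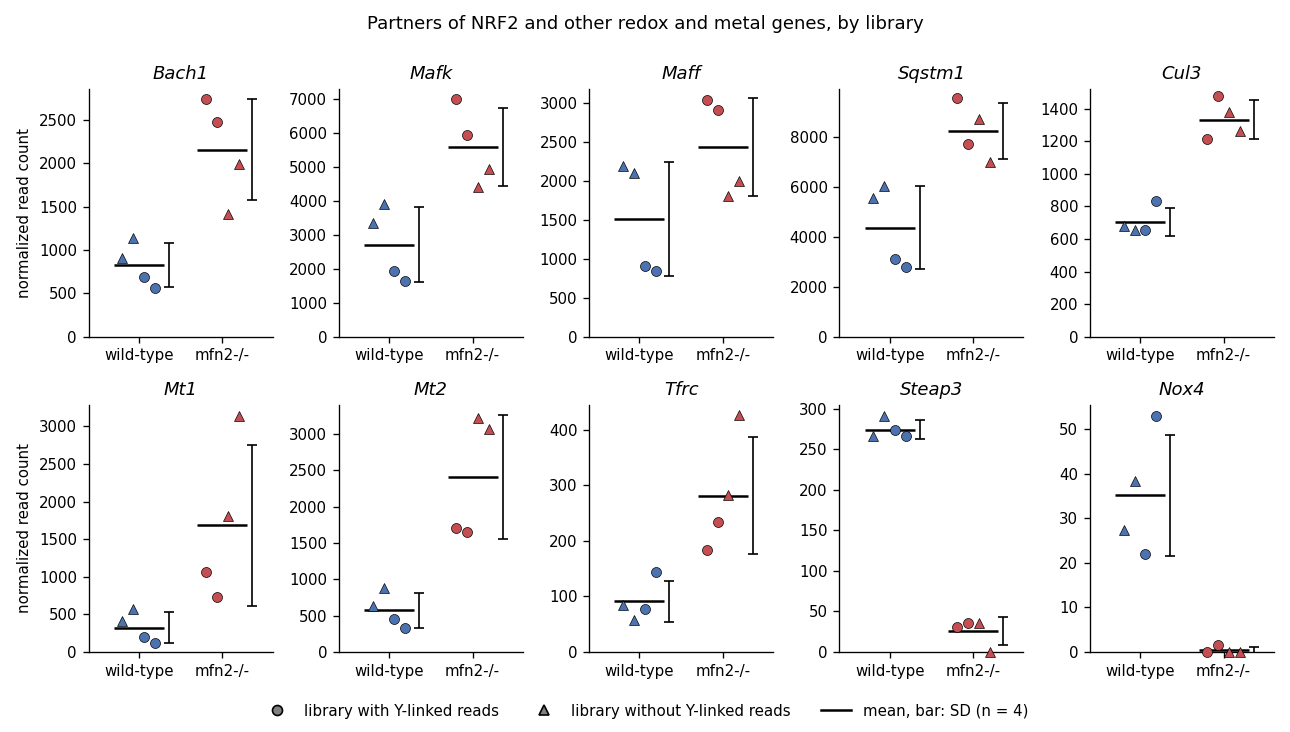
Normalized read count (vertical axis, linear from 0) of partners of NRF2 and of other redox and metal genes in each library, with the same symbols as for the members (line: mean, bar: SD, n = 4). Bach1, Cul3, Mt1, Mt2 and Tfrc are higher in every mfn2-/- library, Steap3 and Nox4 are lower in every one, and Maff overlaps.

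Of the other genes known as NRF2 targets, 1 of 23 tested was called. This was Aox1, an aldehyde oxidase, with 121 to 239 in wild-type and 295 to 410.0 in mfn2-/- libraries and a change of 1.06 (SE 0.29, limma adjusted p = 0.0323). That call was lost without wild-type replicate 3 (adjusted p = 0.0904) or 4 (0.0957), and without mfn2-/- replicate 1 (0.0902), 2 (0.0977) or 3 (0.0632). Fth1, the ferritin heavy chain that stores iron, had a change of 0.77 (limma adjusted p = 0.0968), and passed without wild-type replicate 1 (1.01, adjusted p = 0.0227). Ephx1, the microsomal epoxide hydrolase, had a change of -0.58 (limma adjusted p = 0.378). The median of the list was 0.20, and 7 of its 30 genes in the table were under the filter. Nqo1, a quinone reductase often used to read NRF2 activity and named here after its values were seen, was one of these, with at most 15.6 normalized reads in the wild-type and 7.11 in the mfn2-/- group.

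Among 15 genes of heme and iron handling, 1 was called higher and 1 lower, with a median change of 0.00. Tfrc, the transferrin receptor that brings iron into the cell, measured 84.1, 58.1, 77.6 and 144 in wild-type and 183, 235, 282 and 427 in mfn2-/- replicates 1 to 4. The groups did not overlap, and the change was 1.63 (SE 0.39, limma adjusted p = 0.0172). It narrowly missed without mfn2-/- replicate 3 (adjusted p = 0.0518). Steap3, a ferrireductase of the same uptake route, measured 266, 290.4, 274 and 266 in wild-type and then 30.7, 35.6, 35.4 and 0 in mfn2-/- replicates 1 to 4. It was uniformly high in wild-type libraries, and its mean fell 10.8-fold in mfn2-/- libraries, with mfn2-/- replicate 4 at 0. Its change was -4.26 (SE 1.00, limma adjusted p = 0.0161), and it missed without wild-type replicate 3 (adjusted p = 0.0523). The most abundant gene not called besides Fth1 was Ireb2, an iron regulatory protein gene, with a change of -0.35 (limma adjusted p = 0.381).

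The glutathione system gave 0 calls of 23 genes tested with limma, 0 with edgeR and 1 with DESeq2, and 5 genes had an unadjusted limma p under 0.05. Its median change was 0.11. Its most abundant genes were Gpx3, the secreted glutathione peroxidase, with a change of 0.21 (limma adjusted p = 0.596), and Slc3a2, the heavy chain of the cystine importer, with a change of 0.77 (limma adjusted p = 0.136). The thioredoxin and peroxiredoxin system gave 0 calls of 17 genes tested with limma, edgeR and DESeq2 alike, and 3 genes had an unadjusted limma p under 0.05. Its median change was -0.55. Txnip, which binds and inhibits thioredoxin, had a change of -0.22 (limma adjusted p = 0.614). Msrb3, a methionine sulfoxide reductase, had a change of -0.67 (limma adjusted p = 0.127), and passed without wild-type replicate 1 (-0.87, adjusted p = 0.0372).

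Of 10 other antioxidant genes tested, 2 were called, both higher and both metallothioneins, small proteins that bind zinc and copper and can scavenge radicals. Mt1 measured 412, 570.4, 193 and 116 in wild-type and 1061, 730.0, 1814 and 3137 in mfn2-/- replicates 1 to 4. Mt2 measured 635, 877, 455 and 326 in wild-type and then 1700.2, 1646, 3213 and 3066 in mfn2-/- replicates 1 to 4. Neither gene overlapped between groups, and in mfn2-/- libraries replicates 3 and 4, without Y-linked reads, were the highest. On the log2 scale Mt1 rose by 2.42 (SE 0.50, limma adjusted p = 0.00783) and Mt2 by 2.09 (SE 0.31, limma adjusted p = 0.000981). The median of the list was -0.26. Ucp2, a mitochondrial carrier, had a change of 0.34 (limma adjusted p = 0.547), and Idh2, the NADPH-forming isocitrate dehydrogenase of mitochondria, of -0.31 (limma adjusted p = 0.45).

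Of the subunits of NADPH oxidase, an enzyme that produces superoxide or hydrogen peroxide, 3 of 10 in the table were tested and 1 was called. Nox4, whose product is mainly hydrogen peroxide, measured 27.3, 38.4, 22.1 and 52.9 in wild-type replicates 1 to 4 and 0, 1.58, 0 and 0 in mfn2-/- replicates 1 to 4. All mfn2-/- libraries were at or under 3 reads, so against a floor of 3 reads in each library (3.02 normalized reads on average) Nox4 was at least 11.6-fold lower. Its call (limma adjusted p = 0.0128) rests on a fitted change that depends on the pseudocount. Rac1, a small GTPase with many other roles, had a change of -0.92 (limma adjusted p = 0.304) and Cyba, the membrane subunit p22phox, of -0.27 (limma adjusted p = 0.922). The sign for Cyba turned under a pseudocount of 0.1 and under quantile normalization.

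**Figure D5:**
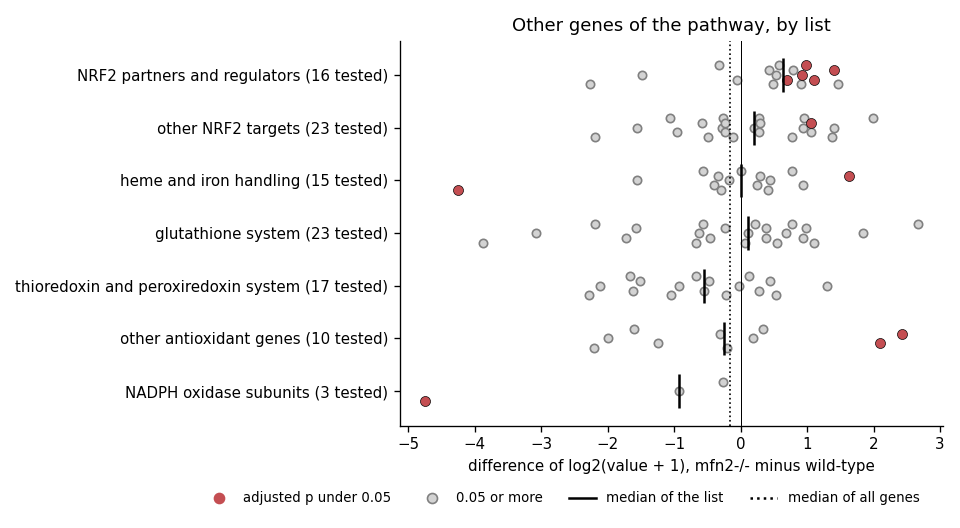
Difference of log2(value + 1), mfn2-/- minus wild-type (horizontal axis), for each tested gene of the 7 lists (rows, with the number tested). Red points passed an adjusted p of 0.05 in limma and grey points did not, black bars are list medians and the dotted line is the median of all genes (-0.16). The 5 called partners of NRF2 lie between 0.69 and 1.40, and the glutathione and thioredoxin lists hold no red point.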

How the data were processed

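RNA-seq of ASCs from 4 wild-type and 4 mfn2-/- samples was analysed, with groups and replicate numbers taken from the sample titles. The deposited values were a signal per gene: read counts that the authors had normalized, on a linear scale, with 1 column per library. The submitters' processing notes name Trim Galore, HISAT2, featureCounts, DESeq2 and mm9. Versions, annotation and strand setting are not given in the sources used here. In every column 100% of values were whole multiples of 1 step (tolerance 0.01), so the authors had divided the reads by 1 size factor per library, and whole reads were recovered. A read was worth 0.534 to 2.27 normalized reads. Precision for weak genes was lowest in the shallowest libraries, and without molecular identifiers PCR copies count as reads of their own. Spreadsheet dates replaced 24 symbols, which were kept as they stand.

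Genes with a mean of at least 10 (11754 of 18877) entered the test, made on log2(value + 1) with limma 3.58.1 (R 4.3.3). The variance prior followed a trend on intensity, no covariate entered, tests were two-sided, and p-values were adjusted over all genes by Benjamini-Hochberg, with calls at 0.05. The interaction fit added the presence of Y-linked reads and its product with genotype. Alternatives were pseudocounts of 0.1 and 10, no filter, a mean of at least 50, scaling by equal totals, by upper quartile or by quantiles, a block for the replicate number, weights per library, no trend, Y-linked reads as a term, each library left out, and edgeR 4.0.16 and DESeq2 1.42.0 on recovered reads, which called 1158 and 1738 genes. Overlapping exons and near-identical copies (95% identity over at least 100 bases) came from GENCODE M21 (GRCm38), and the table itself holds no coordinates.

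The members, the lists and the rule for names were chosen with earlier results of these data known. The rule named all members, Mfn2, up to 5 called genes per pathway list with the largest change and the 2 most abundant not called. It also named the 2 most abundant genes of each marker list. Other marker genes in the text, called or without a read in a group, were chosen after their values were seen and are not all of those called. Tables and figures were made in Python 3.11.15.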

Additional observations from a re-analysis of the deposited data

Results flagged for a closer look

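Among 74 groups of 4 libraries, 5 had a library far from the other 3 by Dixon's criterion, and chance flags about 1 in 20 groups. Sod2 measured 716 in wild-type replicate 1 and 247 to 303 in the other wild-type libraries. Cul3 measured 833 in wild-type replicate 4 and 656 to 678 in the others of that group. In mfn2-/- replicate 4, Steap3 was at 0 against 30.7 to 35.6 in the other mfn2-/- libraries, and Slc3a2 was at 1556 against 871 to 913. Nox4 was at 1.58 in mfn2-/- replicate 2 and at 0 in the other mfn2-/- libraries, a difference of 2 reads.

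Whether the genotype change differed between libraries with and without Y-linked reads was read for 35 named genes, leaving out those from marker lists. It did for 5 (limma interaction, adjusted p under 0.05), against 1.47% of all genes tested. The 35 were named as members, as the targeted gene, for a call or for abundance, so these shares are not comparable. Atp2a1, named from a marker list, passed as well (limma interaction -3.19, adjusted p = 0.00452). The kind of library cannot be told apart from the pair of replicate numbers. The limma interaction on the log2 scale was 2.04 for Srxn1 (adjusted p = 0.0059), 1.93 for Maff (adjusted p = 0.00163) and 1.49 for Mafk (adjusted p = 0.00708). For Sqstm1 it was 1.10 (adjusted p = 0.0324), with changes of 1.54 with and 0.43 without Y-linked reads. For Ephx1 it was 2.19 (adjusted p = 0.0306), with changes of 0.52 and -1.67. Ephx1 ranged over 295 to 898 in wild-type and 199.7 to 495 in mfn2-/- libraries. Under 10 of 15 alternatives for Sqstm1 and 9 of 15 for Ephx1 the interaction missed the threshold, in the same direction.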

How the results depend on the processing

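Nfe2l2 and Txnrd1 were called under all 21 alternatives and Sod2 under 20. The number of members called was 6 with library weights, which added Hmox1, Srxn1 and Gclc, and 2 to 4 under every other alternative. Over all genes the count of 1217 became 633 with no trend and 3037 with library weights, and 671 to 1331 with a library left out (671 without wild-type replicate 3 and 749 without 4). The share of calls that were higher was 17.9% with no trend. Of the listed pathway genes, 11 calls became 3 with no trend and 28 with library weights, and 6 to 12 with a library left out. The interaction count of 173 became 109 with no filter, 109 with quantile normalization, and 31 to 1347 with a library left out, the highest without mfn2-/- replicate 3 and the lowest without mfn2-/- replicate 1. Signs turned for Ephx1 with library weights (0.19), and for Cyba with a pseudocount of 0.1 (0.41), with quantile normalization (0.32) and with a library left out (-1.48 to 0.51). With a library left out, the change ranged from -0.25 to 2.11 for Gclm and from -0.34 to 0.89 for Sod1, and the interaction of Sod2 from -0.075 to 1.35. The cause of these moves was not tested. Over all genes tested, the deviations of same-numbered libraries from their group means had correlations of -0.03, -0.05, 0.04 and -0.11. Same-numbered libraries always differed in Y-linked reads, so these correlations cannot settle whether the numbers pair them. With the replicate number as a block, 1043 genes were called (434 higher and 609 lower), no call of a member changed, and 12 listed pathway genes were called. Of the other named genes the block added Maff (adjusted p = 0.0299) and lost Ep300 (adjusted p = 0.0604). Changes of weak genes such as Gclm rest on few reads, and the part of depth in them was not tested.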
